A study of Homo sapiens with 6 samples.

Results

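The 9 genes described here were 3 adaptors of the GRB7 family (*GRB14*, *GRB10* and *GRB7*), 3 receptors of insulin and the insulin-like growth factors (*INSR*, *IGF1R* and *IGF2R*) and 3 insulin receptor substrates (*IRS1*, *IRS2* and *IRS4*). They were taken by symbol from the 60651 genes of each count table. *GRB14* was chosen by its lower counts in libraries labelled Tet, so its difference is given as a description, and the call that chose it supports nothing here, while the other 8 were listed as its relatives and pathway partners. Of the 9 genes, 7 had enough counts to be tested, and *GRB7* and *IRS4* were at 0 in every library.

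Total RNA was sequenced in 6 libraries of a human neuroblastoma line, 3 from cells given the vehicle ethanol (EtOH) and 3 from cells given tetracycline (Tet), the latter for 5 days. The titles name IMR-5/75, a *MYCN*-amplified line that the study used with a tetracycline-inducible shRNA against *MYCN*, and one label speaks of a knockdown. The sample names in the headers of the deposited counts match the titles. The protocol text instead describes SK-N-SH cells with a *MYCN* expression system under a tetracycline repressor, kept as single clones under G418 and blasticidin, and only the titles were used to form the groups. Nothing in the labels said whether the 3 libraries of a group came from separate cultures, so that p-values measure the spread between these libraries.

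The libraries held between 27933378 and 40498065 counts. *MYCN*, the gene the system was built to regulate, showed no detectable difference between the labels (log2 fold change -0.07, SE 0.23, 95% interval -0.60 to 0.46, adjusted p by edgeR 0.956), and directions below compare the labels only. In a principal component analysis of log2 CPM (counts relative to the library total), EtOH replicate 2 lay furthest out on the first axis. It was at 84.2, Tet replicate 2 was on the same side at 47.3, and the others were at -55.0 to -1.8. This axis took up 44.7% of the variance and did not separate the labels. The second axis, with 25.7%, separated them, with EtOH libraries at -39.1 to -34.7 and Tet libraries at 26.4 to 48.1. Of 12 markers of noradrenergic neuroblastoma, *GATA3* (247.3 ± 17.2 and 316.3 ± 17.4 CPM in EtOH and Tet; SD, n = 3 each) and *HAND2* (110.8 ± 43.9 and 100.2 ± 25.2 CPM) were well expressed, while the defining enzyme genes *TH* and *DBH* were at or near 0 (at most 0.0252 and 0.453 CPM).

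Insulin and IGF1 act through the receptor tyrosine kinases encoded by *INSR* and *IGF1R*, which phosphorylate the IRS adaptors and so recruit PI3-kinase, AKT and the RAS pathway. GRB14 and GRB10 bind the activated receptors through their SH2 domain and a neighbouring region between the PH and SH2 domains, and both are known as inhibitors of insulin receptor signalling. In neuroblastoma, IGF signalling through IGF1R is known as a growth and survival pathway.

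*GRB14* (ENSG00000115290.10, minus strand of chromosome 2, 164492417 to 164621482 on GRCh38) stood in libraries labelled Tet at 29.2% of its mean in libraries labelled EtOH. It was measured at 7.31, 6.46 and 7.24 CPM across EtOH replicates 1 to 3 against 2.09, 2.48 and 1.56 CPM across Tet replicates 1 to 3. CPM here carry the TMM scaling factors of edgeR. All 3 libraries labelled Tet lay below all 3 labelled EtOH, with a wide gap between the groups. Behind these levels stood 262, 179 and 219 counts in the EtOH libraries and 59, 88 and 62 counts in the Tet libraries. The means were 7.002 ± 0.474 and 2.05 ± 0.463 CPM (SD, n = 3 each), and the log2 fold change was -1.78 (SE 0.26). The direction was kept in each fit that left out 1 library, with log2 fold changes from -1.94 to -1.61.

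These values chose the gene and are not evidence for it. *GRB14* was one of 20 genes called lower among 22443 tested (0.0891%), at rank 53 of the 53 genes called in either direction by edgeR (0.236% of genes tested). Among the values that chose it was its adjusted p of 0.0464, the last inside the threshold of 0.05, with the next gene outside it at 0.0529. The counting shared reads among overlapping genes and ignored strand, and 0% of the exon bases of *GRB14* are shared with another gene.

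In 3 lists of cell-state markers, 0 genes passed the threshold. Over the 12 noradrenergic markers, the summed level was 632.9 to 716.9 CPM in EtOH libraries and 741.4 to 883.3 CPM in Tet libraries, and 6 of the 9 tested were higher at an unadjusted p under 0.05, against 10.8% of all genes tested in either direction. Summed over 17 proliferation genes it was 2033 to 3125 CPM in EtOH and 1767 to 2338 CPM in Tet, with a median log2 fold change of -0.33 and 2 of 17 genes lower at an unadjusted p under 0.05, and the groups overlapped. Over 15 markers of mesenchymal-state cells, fibroblasts and Schwann cells it was 143.1 to 266.4 and 124.7 to 178.5 CPM, also overlapping, with 1 gene higher and 1 lower at an unadjusted p under 0.05, and *COL1A2* and *S100B* were at 0. The part of these in the level of *GRB14* was not tested, and in bulk RNA fewer cells that express a gene and less RNA per cell cannot be told apart.

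**Figure D1:**
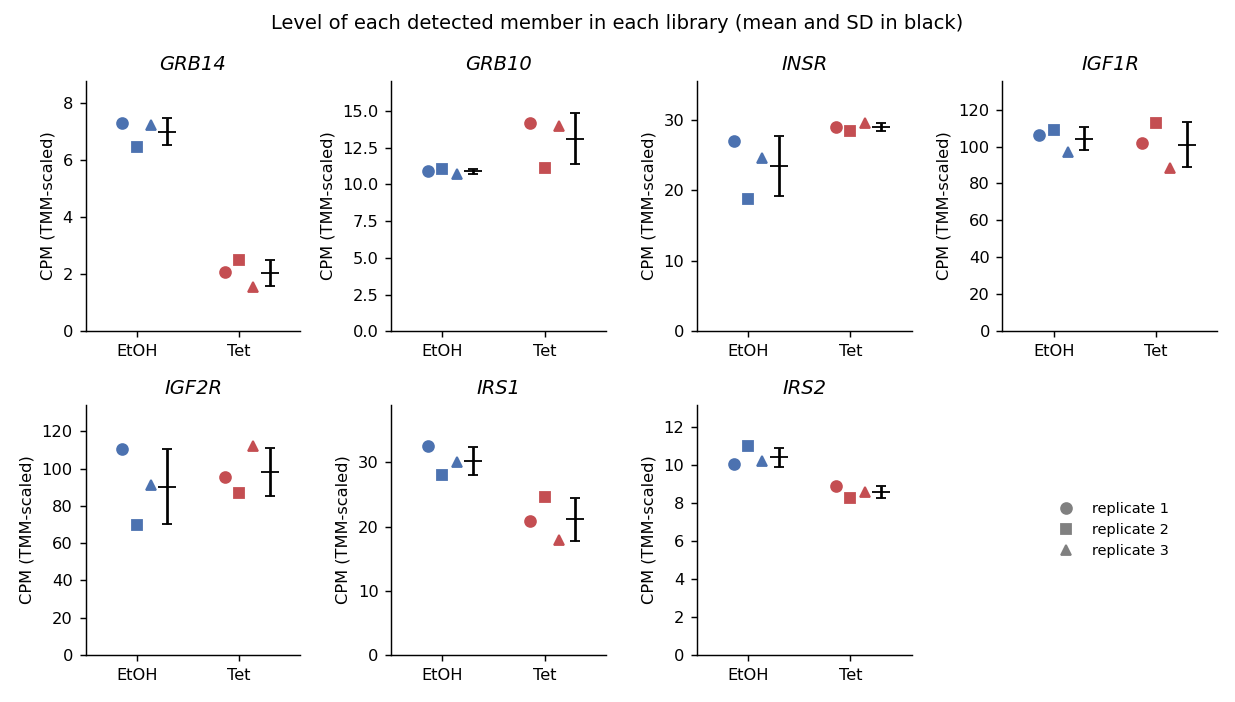
Level of each of the 7 detected genes in CPM (TMM-scaled, axes from 0) in the 3 libraries labelled EtOH and the 3 labelled Tet; marker shape gives the replicate number, black bars the mean and SD. *GRB14*, *IRS1* and *IRS2* lie lower and *GRB10* and *INSR* higher in all 3 Tet libraries, while *IGF1R* and *IGF2R* overlap.

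The promoter of *GRB14* is shown as the start of the gene with the largest difference, beside those of *IGF2R* and *IRS1*, the only 2 of the 8 matched members whose window held the E-box CACGTG, the palindromic motif bound by MYC family proteins. Each window covers 250 bases before and 50 bases after the RefSeq start site at the outer end of the gene (GRCh38.p14), 5′ to 3′ on the strand of the gene, with CACGTG in capitals. They are chr2:164621433-164621732 on the minus strand for *GRB14*, chr6:159968832-159969131 on the plus strand for *IGF2R* and chr2:226799771-226800070 on the minus strand for *IRS1*.
GRB14: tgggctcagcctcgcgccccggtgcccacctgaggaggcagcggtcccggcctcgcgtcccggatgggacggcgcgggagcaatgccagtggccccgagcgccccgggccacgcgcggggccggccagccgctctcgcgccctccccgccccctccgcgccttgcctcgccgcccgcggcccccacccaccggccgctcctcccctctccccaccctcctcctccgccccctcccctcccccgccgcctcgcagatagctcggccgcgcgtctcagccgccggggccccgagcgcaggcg
IGF2R: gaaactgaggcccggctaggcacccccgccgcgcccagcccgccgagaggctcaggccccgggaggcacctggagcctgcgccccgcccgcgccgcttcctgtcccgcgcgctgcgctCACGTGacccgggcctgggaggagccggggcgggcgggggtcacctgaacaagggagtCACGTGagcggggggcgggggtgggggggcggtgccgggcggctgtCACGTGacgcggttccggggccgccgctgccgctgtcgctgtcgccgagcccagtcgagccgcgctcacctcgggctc
IRS1: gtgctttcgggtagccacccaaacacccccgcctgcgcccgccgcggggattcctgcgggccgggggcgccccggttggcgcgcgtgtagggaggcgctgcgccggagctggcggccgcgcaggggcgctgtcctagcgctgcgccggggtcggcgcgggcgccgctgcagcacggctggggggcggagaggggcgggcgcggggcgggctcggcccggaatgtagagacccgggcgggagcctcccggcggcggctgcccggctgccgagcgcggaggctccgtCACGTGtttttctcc

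The window of *IGF2R* held CACGTG 3 times, with its first base at -132, -74 and -28 from the start site, and that of *IRS1* held it once, at 35. Of all 35116 promoter windows of this length, 7.26% held at least 1 CACGTG and 0.0940% held 3 or more. These windows cover every listed start site, while 1 was taken per member. *GRB10* has 5 listed start sites and *GRB14* and *IRS4* have 2 each, and their other start sites were not searched. The *GRB14* window held none, and was rich in G and C (81.7%, against a median of 58.7% over all windows). The windows of the other matched members held 68.3% to 81% G and C. The GC box GGGCGG, on either strand, was in all 8 windows, with 3 copies in that of *GRB14*, and in 44.95% of all windows. The forkhead motif GTAAACA, on either strand, was in 0 of the 8 and in 3.42% of all. A match describes the letters of a window and says nothing of binding.

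*GRB10* (ENSG00000106070.20, chromosome 7, 50590063 to 50793462), the closest relative of *GRB14* among the detected genes and an imprinted gene in several tissues, showed no fall. It reached 10.9, 11.1 and 10.7 CPM across EtOH replicates 1 to 3 against 14.2, 11.1 and 14.02 CPM across Tet replicates 1 to 3. The EtOH libraries lay close together, and Tet replicate 2 was level with them while the other two Tet libraries were higher. The log2 fold change of 0.27 (SE 0.19, 95% interval -0.16 to 0.69, edgeR adjusted p = 0.691) did not pass the threshold. Its contrast with *GRB14*, whose value chose that gene, was not tested.

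*GRB7* (ENSG00000141738.14, chromosome 17, 39737927 to 39747291), known as a partner of the receptor ERBB2, had 0 counts in all 6 libraries. At these depths a count of 0 allows up to 3 counts per library, or between 0.0741 and 0.107 CPM, which covers counting error only, since reads carried no molecular identifiers. Its listed neighbours on chromosome 17 were low as well. *ERBB2* reached at most 0.101 CPM, *PGAP3*, *PNMT* and *IKZF3* were at 0, and the 9 listed neighbours together held between 4.65 and 13.6 CPM, most of it from *GSDMB*.

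Per exon length, the order of *GRB14* and *GRB10* was turned around between the labels. In CPM it was not, since *GRB10* lay above *GRB14* in every library. The order per exon length thus depends on the lengths used, 2987 bases for *GRB14* and 9795 bases for *GRB10*. TPM are counts per exon length, scaled to a common total, so that genes can be compared with each other. *GRB14* stood at 6.53 ± 0.125 TPM in EtOH libraries and 1.84 ± 0.508 TPM in Tet libraries, and *GRB10* at 3.11 ± 0.201 and 3.56 ± 0.502 TPM (SD, n = 3 each). *GRB14* thus made up 68.7%, 65.7% and 68.9% of the summed TPM of both genes in EtOH replicates 1, 2 and 3, and 32.6%, 42.2% and 26.7% in Tet replicates 1, 2 and 3. It was the larger share in each EtOH library and the smaller in each Tet library. This share uses the values that chose *GRB14* and was not tested.

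Among the receptors, *IGF1R* (ENSG00000140443.15, chromosome 15, 98648539 to 98964530) was the highest of the 9 genes per exon length, and no difference in its level was detected. It had 106.2, 109.1 and 97.2 CPM across EtOH replicates 1 to 3 against 101.7, 112.9 and 88.3 CPM across Tet replicates 1 to 3. The groups overlapped, and the spread within the Tet libraries was larger than the difference of the means. The log2 fold change was -0.05 (SE 0.15, 95% interval -0.39 to 0.30, edgeR adjusted p = 0.958).

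*INSR* (ENSG00000171105.14, chromosome 19, 7112255 to 7294414), the insulin receptor, had 27.0, 18.7 and 24.6 CPM across EtOH replicates 1 to 3 against 29.0, 28.5 and 29.6 CPM across Tet replicates 1 to 3. The 3 Tet libraries were close together and above each EtOH library, and EtOH replicate 2 was the lowest of the 6. The log2 fold change of 0.31 (SE 0.18, 95% interval -0.10 to 0.72, edgeR adjusted p = 0.606) did not pass the threshold, and without EtOH replicate 2 it was 0.18. Gene-level counts do not separate the isoforms of the receptor with and without its alternative exon.

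*IGF2R* (ENSG00000197081.16, chromosome 6, 159969082 to 160113507) encodes the mannose 6-phosphate receptor, which carries lysosomal enzymes and clears IGF2 without signalling as a kinase. It had 110.3, 69.8 and 91.1 CPM across EtOH replicates 1 to 3 against 95.7, 86.9 and 111.9 CPM across Tet replicates 1 to 3. The groups overlapped, with the lowest value again in EtOH replicate 2. The log2 fold change was 0.12 (SE 0.20, 95% interval -0.33 to 0.57, edgeR adjusted p = 0.897), and it was -0.03 without EtOH replicate 2. Exons of *IGF2R* overlap over 2.53% of their bases with the pseudogene *CHP1P2* on the same strand.

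Among the IRS adaptors, *IRS1* (ENSG00000169047.6, chromosome 2, 226731312 to 226799820) had the lowest log2 fold change of the members beside *GRB14*. It had 32.5, 28.1 and 30.1 CPM across EtOH replicates 1 to 3 against 20.9, 24.7 and 18.0 CPM across Tet replicates 1 to 3. Each Tet library was below each EtOH library. The mean went from 30.2 ± 2.21 to 21.2 ± 3.34 CPM, 70.1% of the EtOH mean (n = 3 each, SD). Its log2 fold change of -0.51 (SE 0.18, 95% interval -0.91 to -0.11) had an unadjusted p of 0.0181 and did not pass the threshold over all genes (edgeR adjusted p = 0.331). Over its alternatives the adjusted p lay between 0.117 and 0.805.

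*IRS2* (ENSG00000185950.9, chromosome 13, 109752695 to 109786583) was lower expressed than *IRS1*. It had 10.1, 11 and 10.2 CPM across EtOH replicates 1 to 3 against 8.93, 8.29 and 8.61 CPM across Tet replicates 1 to 3. All 3 Tet libraries were below the EtOH libraries. The log2 fold change of -0.28 (SE 0.18, 95% interval -0.70 to 0.14, edgeR adjusted p = 0.669) did not pass the threshold. *IRS4* (ENSG00000133124.12, chromosome X, 108719946 to 108736563), an adaptor with a narrow range of tissues, had 0 counts in all 6 libraries, with the same limit as *GRB7*.

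Of the 6 tested genes beside *GRB14*, 0 passed the threshold in the edgeR fit, where 0.236% of all genes did. Likewise 0 passed under DESeq2 (290 genes called higher and 209 lower over all genes) and 0 under limma-voom (37 and 21). At an unadjusted p under 0.05 in the edgeR fit there was 1 of the 6, *IRS1*, against 10.8% of all genes tested. The groups did not overlap in CPM for 4 of the 6 (*GRB10* and *INSR* higher, *IRS1* and *IRS2* lower), against 17.5% of all genes (9.20% higher and 8.28% lower). In TPM this held for 2 of the 6 (*IRS1* and *IRS2*), against 16.4% of all genes (6.52% higher and 9.92% lower), since *GRB10* and *INSR* then overlapped. The median log2 fold change of the 6 was 0.04, and that of all genes tested was -0.01.

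**Figure D2:**
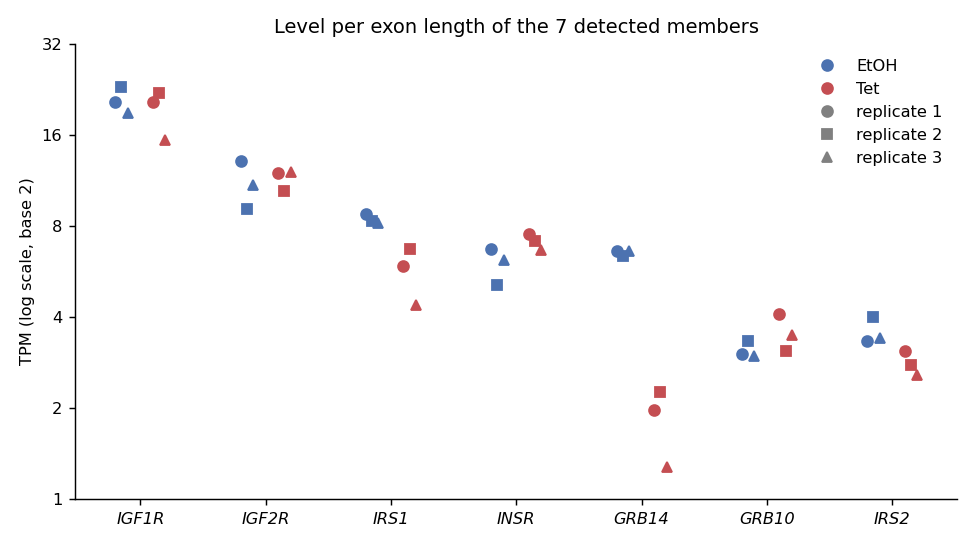
Level per exon length in TPM (log scale) of the 7 detected genes, ordered by their mean, with 1 point per library, coloured by label and shaped by replicate number. *IGF1R* is the highest and *IGF2R* the second in all 6 libraries; *GRB14* lies between 6.39 and 6.61 TPM in the EtOH libraries and between 1.27 and 2.26 TPM in the Tet libraries.

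In level per exon length, *IGF1R* came first and *IGF2R* second in all 6 libraries, at 20.9 ± 2.11 and 11.1 ± 2.02 TPM in EtOH libraries and 19.4 ± 3.46 and 11.5 ± 0.890 TPM in Tet libraries (SD, n = 3 each). In EtOH libraries *IRS1* followed at 8.40 ± 0.311 TPM, then *GRB14* and *INSR*, whose levels did not differ beyond their spread (6.53 ± 0.125 and 6.01 ± 0.826 TPM), and last *IRS2* and *GRB10*, with 3.57 ± 0.358 and 3.11 ± 0.201 TPM. In Tet libraries *INSR* came next with 7.13 ± 0.442 TPM, ahead of *IRS1* with 5.65 ± 1.18 TPM, in 3 of 3 libraries. *GRB10* and *IRS2* followed (3.56 ± 0.502 and 2.81 ± 0.260 TPM), and *GRB14* was the lowest in 3 of 3. All 7 were modest in level, with ranks by mean TPM from 5839 (*IGF1R*) to 14658 (*IRS2*) among all genes.

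Shares within a library compare members with each other and do not depend on library scaling. *INSR* made up 24.7%, 18.1% and 24.6% of the summed TPM of *INSR* and *IGF1R* in EtOH replicates 1, 2 and 3, and 26.9%, 24.5% and 30.2% in Tet replicates 1, 2 and 3. The groups overlapped narrowly, and the difference of the means was 4.73 percentage points (exact two-sided permutation test, p = 0.3, adjusted over 3 shares 0.45), or 2.55 points without EtOH replicate 2. *IRS2* made up 29.8% ± 2.48 of the summed TPM of *IRS1* and *IRS2* in EtOH libraries and 33.6% ± 3.96 in Tet libraries (SD, n = 3 each; exact permutation test, p = 0.3, adjusted 0.45). *IGF2R* made up 34.6% ± 5.65 of the summed TPM of *IGF2R* and *IGF1R* in EtOH libraries and 37.6% ± 5.88 in Tet libraries (exact permutation test, p = 0.5, adjusted 0.5). With 3 libraries against 3 this test cannot give a p under 0.1.

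**Figure D3:**
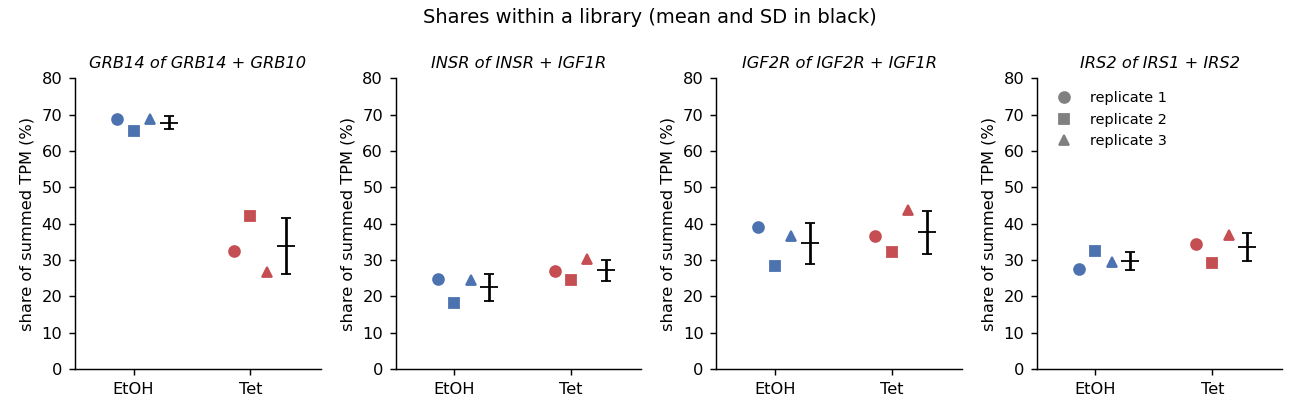
Share of 1 gene in the summed TPM of a pair (%, axes from 0) in each library, for *GRB14* with *GRB10*, *INSR* with *IGF1R*, *IGF2R* with *IGF1R* and *IRS2* with *IRS1*; black bars are the mean and SD. The *GRB14* share is 67.8% ± 1.82 in EtOH and 33.8% ± 7.82 in Tet libraries, and the groups overlap in the other 3 pairs.

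The rest of the pathway was followed through 9 lists holding 156 genes, of which 135 were tested. In the edgeR fit 0 of the 135 passed the threshold, against 0.236% of all genes tested. Under DESeq2, which called 290 genes higher and 209 lower over all genes, 4 did (*IGFBP5*, *RPS6KA2*, *SHC3* and *TBC1D4*). Under limma-voom, which called 37 higher and 21 lower, 0 did. In the edgeR fit 16 of the 135, or 11.9%, had an unadjusted p under 0.05, close to the 10.8% of all genes. Of these, 8 were higher and 8 lower in Tet libraries. The median log2 fold change over the 135 genes was 0.06, against -0.01 over all genes tested. Genes named below are the most abundant of each list and the 2 with the lowest unadjusted p.

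Of 16 ligands and binding proteins, 8 were tested and 0 passed, with a median log2 fold change of 0.21, and *INS*, *INSL3*, *IGFBP1* and *IGFBP6* were at 0. At an unadjusted p under 0.05 by edgeR, 3 of the 8 were higher and 1 lower, against 10.8% of all genes tested in either direction. The summed level of the 16 was 232.1 to 265.6 CPM in EtOH and 294.5 to 340.6 CPM in Tet libraries, a difference that was not tested. *IGFBP5*, which encodes a secreted protein that binds IGFs, had 11.4 ± 5.64 CPM in EtOH and 29.0 ± 11.1 CPM in Tet libraries (log2 fold change 1.35, SE 0.38, adjusted p by edgeR 0.234). Its lowest Tet value, 19.6 CPM, was just above its highest EtOH value, 17.9 CPM in EtOH replicate 2. Without that library the edgeR adjusted p was 0.0178, and in the other fits that left out 1 library it was 0.414 to 0.717. With all 6 libraries kept, it was 0.0368 under DESeq2, and by edgeR 0.0246 with no filter and 0.0032 with the replicate number as a block. It was 0.208 to 0.262 in the other alternatives. The most abundant, *IGFBPL1*, had 185 ± 28.7 and 217.2 ± 13.6 CPM. *IGF1*, the ligand of IGF1R, had 3.45 ± 1.63 and 1.56 ± 0.264 CPM (edgeR adjusted p = 0.315). EtOH replicate 2 was at 5.34 CPM against 2.51 CPM in each of the other EtOH libraries, and without it the log2 fold change of *IGF1* went from -1.14 to -0.68. For *IGF1*, 82.5% of exon bases lie inside the antisense gene *HELLPAR*, and counts of these 2 genes cannot be told apart without strand.

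Of 18 further adaptors, 17 were tested, with 2 lower at an unadjusted p under 0.05, and 0 passed. Their median log2 fold change was 0.04. *SHC3*, a neuronal adaptor that links receptor kinases to GRB2 and RAS, came closest. It had 14.03, 11.9 and 13.9 CPM across EtOH replicates 1 to 3 against 5.32, 4.91 and 6.04 CPM across Tet replicates 1 to 3. The groups were far apart, and a log2 fold change of -1.29 (SE 0.20) was outside the threshold (edgeR adjusted p = 0.0551). Without EtOH replicate 2 the adjusted p was 0.0123, and in the other fits that left out 1 library it was 0.188 to 0.339. With all 6 libraries kept, it was 9.46e-06 under DESeq2, and by edgeR 0.0119 with no filter and 0.00745 with the replicate number as a block. It was 0.0505 to 0.0598 in the other alternatives. *DOK6*, a docking protein of the nervous system, had 64.1 ± 4.25 and 47.6 ± 8.16 CPM (adjusted p = 0.405), and the adaptor *CRKL* 56.7 ± 13.7 and 43.9 ± 4.37 CPM (adjusted p = 0.584).

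Of 19 genes of PI3-kinase and AKT signalling, 17 were tested and 0 passed, with a median log2 fold change of 0.09. At an unadjusted p under 0.05, 1 was higher and 2 lower. *TBC1D4*, an AKT substrate that controls the movement of glucose transporters, had 22.5 ± 8.10 and 9.28 ± 1.90 CPM, a log2 fold change of -1.28 (SE 0.29; adjusted p by edgeR, 0.142). *PIK3R3*, a regulatory subunit of PI3-kinase, had 174.6 ± 21.6 and 245.2 ± 39.7 CPM (adjusted p = 0.344), and the atypical protein kinase C gene *PRKCI* had 393.3 ± 71.0 and 277.6 ± 33.3 CPM (adjusted p = 0.354). Of the exon bases of *PIK3R3*, 17.5% lie inside the read-through gene *P3R3URF-PIK3R3*. The 16 TSC and mTOR genes were all tested, with 0 past the threshold and 0 at an unadjusted p under 0.05, and *EIF4EBP2*, which encodes a translation repressor that mTOR acts on, had 296.1 ± 5.91 and 294 ± 17.3 CPM. In this list *EIF4EBP1* (log2 fold change 0.96, SE 0.60) rested on Tet replicate 3, at 4.33 CPM against at most 1.30 CPM in the others, and *TSC2* was at 2.89 ± 1.17 and 4.55 ± 2.04 CPM.

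Of 22 genes of the RAS and MAPK branch, 20 were tested and 0 passed, with a median log2 fold change of 0.02. At an unadjusted p under 0.05, 2 were higher and 1 lower. *RPS6KA2*, a kinase downstream of ERK, had 11.4 ± 0.929 and 20.5 ± 3.003 CPM, a log2 fold change of 0.84 (SE 0.19; adjusted p by edgeR, 0.142). The RAS exchange factor *SOS2* had 119.7 ± 25.1 and 185.3 ± 10.5 CPM (0.63, SE 0.18, adjusted p = 0.224), and *NRAS* was at 376.3 ± 179.4 and 348.2 ± 79.95 CPM. Without EtOH replicate 2, *RPS6KA2* and *SOS2* passed the threshold (edgeR adjusted p = 0.0403 and 0.0171), in a fit that called 361 genes higher and 331 lower. In the other fits that left out 1 library neither passed, with adjusted p of 0.315 to 0.624 for *RPS6KA2* and 0.407 to 0.803 for *SOS2*. With all 6 libraries kept, both passed with the replicate number as a block (edgeR adjusted p = 0.0369 and 0.0296), and *RPS6KA2* under DESeq2 (0.0252). In the other alternatives the adjusted p was 0.115 to 0.157 for *RPS6KA2* and 0.163 to 0.291 for *SOS2*. Of 21 phosphatases and other inhibitors, 19 were tested, with 0 past the threshold and 0 at an unadjusted p under 0.05. They include *PTPN1*, a phosphatase of the insulin receptor, with 15.6 ± 1.99 and 20.5 ± 4.91 CPM, *PTPN11* with 216.6 ± 12.7 and 196.6 ± 12.1 CPM, and the inositol phosphatase gene *INPPL1* with 4.57 ± 1.70 and 8.31 ± 3.68 CPM.

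Of 17 genes listed as binding partners of the GRB7 family, 14 were tested, with 0 past the threshold and 0 at an unadjusted p under 0.05, and the median log2 fold change was -0.13. *TNKS2*, whose product tankyrase is a partner of GRB14, had 232.4 ± 12.0 and 222.1 ± 15.3 CPM, while *FHL2* had 6.70 ± 1.61 and 4.56 ± 0.704 CPM and *PDGFRB* 0.747 ± 0.287 and 0.418 ± 0.158 CPM. Of 16 FOXO-responsive genes, 14 were tested and 0 passed, with a median of 0.24 and no single direction. At an unadjusted p under 0.05, 2 were higher and 1 lower. The transcriptional repressor gene *BCL6* had 5.47 ± 0.530 and 2.94 ± 0.553 CPM (-0.90, SE 0.25, edgeR adjusted p = 0.234), and *SESN1*, a stress-responsive inhibitor of mTOR signalling, had 26.7 ± 2.701 and 35.7 ± 0.919 CPM (0.42, SE 0.15, edgeR adjusted p = 0.367). *SESN3*, the most abundant, had 1267 ± 166.8 and 1035 ± 62.1 CPM. Of 12 receptor relatives and endocytosis genes, 11 were tested and 0 passed, with 1 lower at an unadjusted p under 0.05. *GGA2*, a sorting adaptor of the mannose 6-phosphate receptor, had 42.1 ± 1.22 and 31.4 ± 3.85 CPM (adjusted p = 0.378), the clathrin gene *CLTC* 890.5 ± 55.8 and 951.1 ± 94.5 CPM, and the insulin receptor-related receptor *INSRR* 0.214 ± 0.0182 and 0.429 ± 0.174 CPM.

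**Figure D4:**
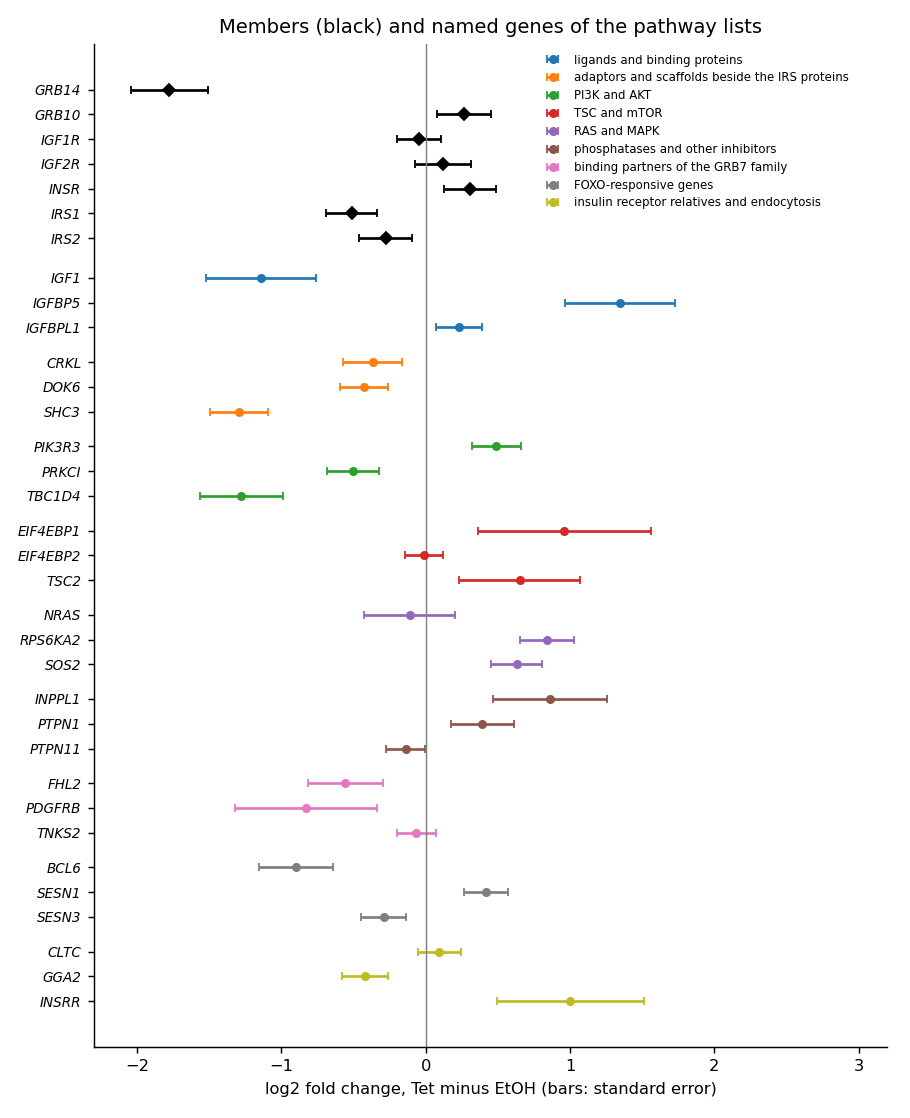
Log2 fold change, Tet minus EtOH, with its standard error, for the 7 tested members (black diamonds) and the named genes of the 9 pathway lists (coloured by list). *GRB14* is the lowest at -1.78, and *IGFBP5* the highest at 1.35; 0 of the genes beside *GRB14* passed the threshold.

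Of the tested genes around *GRB14*, 0 were lower past the threshold. *COBLL1*, the closest of the 8 listed neighbours with its lower end 161.2 kb from that of *GRB14*, had 82.3, 59.2 and 90.5 CPM across EtOH replicates 1 to 3 against 70.4, 61.0 and 69.2 CPM across Tet replicates 1 to 3, and the groups overlapped (log2 fold change -0.21, SE 0.19, adjusted p by edgeR 0.772). The sodium channel gene *SCN2A*, at 702.6 kb, rose from 7.52 ± 0.775 to 19.4 ± 0.431 CPM (1.36, SE 0.18, edgeR adjusted p = 0.0368). It was the only 1 of the 6 tested neighbours past the threshold, against 0.236% of all genes tested. *SCN3A*, at 595.1 kb, went from 29.6 ± 3.83 to 58.1 ± 3.36 CPM and did not pass (0.98, SE 0.16, edgeR adjusted p = 0.0635). Near *GRB10*, *DDC*, which encodes the enzyme that makes dopamine from L-DOPA, rose from 0.242 ± 0.104 to 2.84 ± 0.437 CPM (3.55, SE 0.41, edgeR adjusted p = 0.0280). It was the only 1 of 4 tested neighbours there past the threshold. *COBL* went from 5.44 ± 1.48 to 2.98 ± 0.252 CPM and did not pass (-0.87, SE 0.27, edgeR adjusted p = 0.288). Exons of *DDC* overlap over 3.70% of their bases with *DDC-AS1*. *SCN2A* and *DDC* each lost the call in 5 of the 6 fits that left out 1 library, all but the one without EtOH replicate 2.

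**Figure D5:**
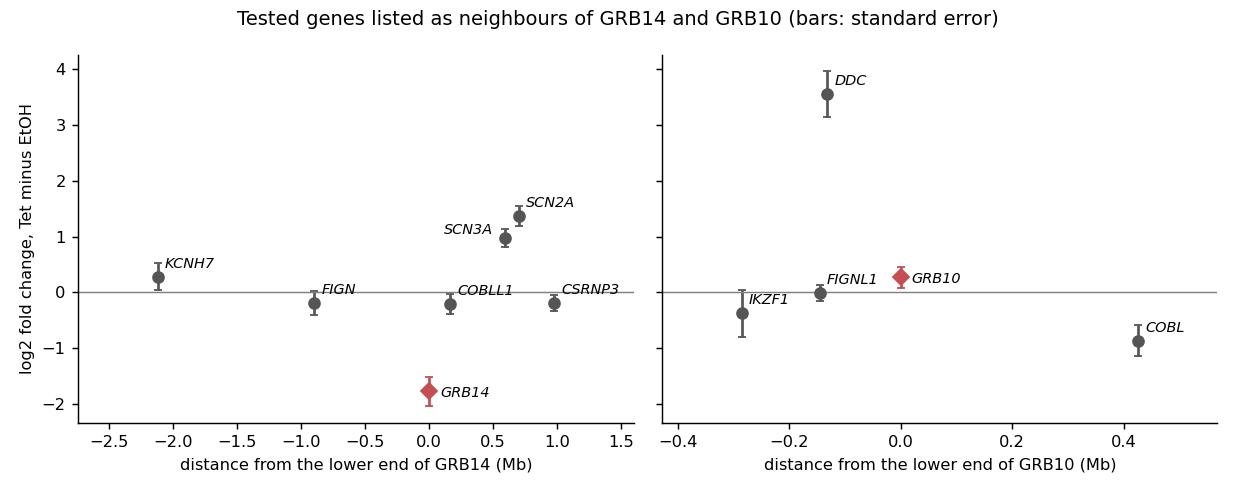
Log2 fold change, Tet minus EtOH, with its standard error, against the distance in Mb from *GRB14* (left) and *GRB10* (right) for the tested genes listed as their neighbours. *GRB14* is at -1.78 while *COBLL1* is at -0.21 and *SCN2A* at 1.36; *DDC* is at 3.55 beside *GRB10* at 0.27.

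The genes whose levels over the 6 libraries were most like those of *GRB14*, by Pearson's r of log2 CPM among 10089 genes with a mean of at least 5 CPM, were *PDGFRA* (r = 0.997), *SORD* (0.996), *PTCD3* (0.996), *EPB41L4B* (0.994) and *SLC35G1* (0.994). This is a description of 6 points that share 2 labels, and 101 genes had an r over 0.95. *PDGFRA*, a receptor of platelet-derived growth factors, had 98.7, 96.3 and 94.5 CPM across EtOH replicates 1 to 3 against 49.4, 54.0 and 44.3 CPM across Tet replicates 1 to 3. Its Tet libraries fall in the same order as those of *GRB14*, with replicate 2 the highest and replicate 3 the lowest. The EtOH libraries do not, since replicate 3 was the lowest for *PDGFRA* and replicate 2 for *GRB14*. *PDGFRA* was picked by this correlation, so a like order is partly built in. The log2 fold changes of the 5 genes ranged from -0.97 (*PDGFRA*) to -0.32 (*EPB41L4B*), all smaller in size than that of *GRB14*.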

How the data were processed

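Ribosomal RNA was removed before stranded paired-end libraries were made. The authors deposited 1 table of estimated counts per library, unscaled. The file headers name trimming, STAR, and featureCounts 1.6.4 on unique alignments over exons, with a pair that overlaps several genes divided among them and no strand setting. The submitters' processing notes name STAR 2.7.1a, featureCounts 1.5.1 and GRCh38; the header's account was followed. Values were not whole for 12.3% to 14.7% of genes per library.

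The 92 spike-in sequences, all at 0, were left out. Counts were rounded, filtered with filterByExpr, scaled by TMM, and tested with edgeR 4.0.16 (quasi-likelihood F test, R 4.3.3), with Benjamini-Hochberg adjustment over all genes tested and a threshold of 0.05. The standard error (SE) is the log2 fold change divided by the square root of F, and 95% intervals use the t quantile of that test. Shares of TPM were compared by exact two-sided permutation tests. A total of 3 counts corresponds to between 0.0741 and 0.107 CPM. Promoter sequences are RefSeq's, and matched 8 of 9 members. No batch was labelled.

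Members, lists and the naming rule were chosen with earlier results of these data known. The rule names the members, listed pathway and neighbouring genes past the threshold, the most abundant gene and the 2 with the lowest p of each pathway list, and the 5 genes most like *GRB14*. *COBLL1*, *SCN3A*, *COBL*, *GSDMB*, the marker genes and genes at 0 were named after their values were seen. Alternatives were RLE and upper quartile scaling, no filter, a minimum of 10 counts, DESeq2 1.42.0, limma-voom (limma 3.58.1), unrounded counts, a replicate block, and leaving out each library. The TPM scale was added after seeing the data. The edgeR step was tested on simulated data.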

Additional observations from a re-analysis of the deposited data

How the results depend on the processing

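*GRB14* kept its direction in every alternative (-1.94 to -1.61). As a limit of the choice itself, the call that chose it was made in 7 of 14 alternatives, and of the 6 that left out 1 library only in the 1 without EtOH replicate 2. The other 6 tested members kept theirs, except that with 1 library left out the log2 fold change of *IGF1R* ranged from -0.13 to 0.047, above 0 without Tet replicate 3, and that of *IGF2R* from -0.031 to 0.27, below 0 without EtOH replicate 2. On the TPM scale, chosen after seeing the data, the log2 fold change of *IRS2* was -0.35, and 2 rather than 4 of the 6 members beside *GRB14* did not overlap. Of the 6, 0 passed the threshold in any alternative.

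Counts of genes called moved widely. There were 33 higher and 20 lower, against 185 and 117 with no filter, 290 and 209 under DESeq2, and 13 lower under RLE. Leaving out 1 library gave 0 to 361 higher and 0 to 331 lower, the most without EtOH replicate 2. Pathway lists held 0 genes past the threshold, but 1 each among ligands, adaptors and PI3K genes with no filter and under DESeq2, and 1 RAS and MAPK gene under DESeq2. Without 1 library they held 0 to 2 among ligands, 0 to 1 among adaptors, 0 to 2 in the RAS and MAPK list and 0 to 1 in the FOXO list. The causes were not tested. The *IGF2R* share ranged from -0.23 to 5.66 percentage points when 1 library was left out, below 0 without EtOH replicate 2 and without Tet replicate 3 (-0.18). The *INSR* share difference ranged from 2.55 (without EtOH replicate 2) to 6.06 and that of *IRS2* from 2.01 (without Tet replicate 3) to 5.90 (without Tet replicate 2).

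Genes that changed sign when 1 library was left out were *EIF4EBP1* (-0.11 to 1.30), *EIF4EBP2* (-0.053 to 0.019, with 0.0085 and 0.00054 in other such fits) and *NRAS* (-0.33 to 0.36, and 0.023 without Tet replicate 3), all short of the threshold. Of 484 tested comparisons of a gene's fold change with an alternative, *GRB14* not among them, 450 kept direction and side of the threshold.

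Whether equal replicate numbers mark pairs could not be settled. Over genes, the deviations of the EtOH and the Tet library of one number correlated at 0.0603, 0.510 and 0.219. All 3 were above 0, with 1 of 3 under 0.1, and the main fit used no pairing. A fit with this replicate block called 421 genes higher and 254 lower, with 2 ligand, 1 adaptor, 1 PI3K and 2 RAS and MAPK genes among them, and 0 of the 6 members. Blocked exact permutation tests of the 3 shares gave p of 0.25 to 0.5, where 3 pairs allow no p under 0.25.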
